A study of Mus musculus with 8 samples.

Results

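Of the 10160 m6A peaks that the study's authors called in mouse bone marrow mesenchymal stromal cells (MSCs), 1207 had their summit in the distal 3'UTR. N6-methyladenosine (m6A) is a methyl mark on adenosines inside mRNA. A peak was counted as distal when its summit lay in the 3'UTR of the coding transcript with the longest coding sequence (CDS) of its gene and more than 200 nt past the stop codon, measured along the mature transcript. The 1207 peaks were 11.9% of the list (Wilson 95% interval 11.3 to 12.5%, counting error only) and lay on 1057 genes. The rule used only the position of the summit and no measured level.

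The study asked what the m6A writer Mettl3 does in the cells that form bone and marrow fat. MeRIP-Seq, in which an antibody pulls down mRNA fragments that carry m6A, was done on 2 immunoprecipitates and 2 inputs labelled wild type, and the authors deposited 1 peak list for the 4. RNA-seq was done on 2 libraries labelled wild type and 2 labelled Prx1-Cre;Mettl3fl/fl. The study's text names the RNA-seq controls as Mettl3fl/fl, without the Cre, and they are called wild type here after their label. All cells were labelled C57BL/6, came from flushed bone marrow of tibiae and femurs, and were kept for 2 days in osteogenic medium with dexamethasone at 100 nM, β-glycerophosphate at 5 mM and ascorbic acid at 50 μg/ml. According to the methods, the RNA-seq controls were littermates of the knockout mice. In the floxed allele, loxP sites flank exons 2 and 3 of Mettl3, and the study states that Cre recombination deletes these exons. The Prx1-Cre transgene is active in limb mesenchyme and the stromal cells that derive from it, and not in blood cells. The ages of the mice, the number of mice behind each library and the genotype of the floxed allele in the MeRIP-Seq cells were not given in the sources used here. The peaks were therefore measured only in cells labelled wild type, and the RNA-seq compares the levels of the mRNAs that carry them.

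m6A is placed on nascent mRNA by a complex in which METTL3 is the catalytic subunit and METTL14 its partner. The complex prefers an adenosine in the context of a GGAC, and the mark is known to be dense near stop codons and in long last exons. Reader proteins of the YTH family bind the methylated base and can speed up the decay of the mRNA or change its translation, and the 3'UTR is where many other stability elements lie.

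The sites shown here are the GGAC nearest to the summit of 9 of the 10 distal peaks with the highest −log10 q-value, with 10 bases on either side of the A, since they show the motif in its sequence around the strongest signals. They are written as DNA in the direction of the transcript, in mm9 coordinates, and the capitals mark the GGAC.
Camk2g, chr14:21555656-21555676, minus strand: ccaggcaaGGACtcttgacag
Pid1, chr1:84034132-84034152, minus strand: gatggaagGGACacgtccagg
Nol9, chr4:151432986-151433006, plus strand: gaaaatcgGGACcatgaaagt
Pdgfa, chr5:139452774-139452794, minus strand: gccctgcaGGACtgaccctcg
Dcun1d2, chr8:13256755-13256775, minus strand: ccacttcaGGACaggggactc
Akap2, chr4:57906144-57906164, plus strand: atccaaagGGACacagatgtg
Klf13, chr7:71035444-71035464, minus strand: atcccacaGGACtgatggtgg
H6pd, chr4:149355445-149355465, minus strand: taggagagGGACtaaggcctc
Atp2b1, chr10:98485846-98485866, plus strand: ttgtctctGGACttcaacaga

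All 9 sites lie in the 3'UTR of their gene. The A of the motif lay 1 nt from the summit in Dcun1d2 and 2 nt in Camk2g, and 8 nt in Nol9. In H6pd and Atp2b1 the nearest GGAC was 83 and 107 nt upstream of the summit, outside the window used for the counts of motifs, which took 50 nt on either side of the summit. No base was called methylated in these data, and a GGAC near a summit is a description of the sequence.

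The strongest distal peak by q-value was that of Camk2g, which encodes the gamma subunit of calcium/calmodulin-dependent kinase II. Its summit lay 419 nt past the stop codon of a 3'UTR of 1990 nt, with a pileup of 138 fragments and a fold enrichment of 6.90 over the local background. Its −log10 q-value of 62.9 ranked 28 in the whole list. The peak of Pid1, an adaptor known to dampen insulin signalling, stood 422 nt past the stop codon with a pileup of 155 and a fold enrichment of 5.58. Next came Nol9, a nucleolar kinase of ribosomal RNA processing, at 404 nt with a fold enrichment of 6.92. The peak of Pdgfa, a growth factor ligand for mesenchymal cells, was at 417 nt with a fold enrichment of 6.13. These 4 summits lay within a narrow range of distances, just past 400 nt.

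Dcun1d2, a factor of cullin neddylation, had a peak at 1131 nt with the highest fold enrichment of these 9 peaks, at 7.12, and a second peak 174 nt past the stop codon with a fold enrichment of 5.34. The distal peak was thus the stronger of the pair on this transcript. The summit of Akap2, which anchors protein kinase A, lay 323 nt past the stop codon on exons of 2 genes and was given to the gene with the most counts. Klf13, a zinc finger transcription factor, had its summit at 979 nt of a 3'UTR of 5157 nt with a pileup of 165. H6pd, which makes NADPH in the endoplasmic reticulum, had the longest interval of all distal peaks, 1887 bp, with its summit at 295 nt. Atp2b1, a calcium pump of the plasma membrane, had its summit at 210 nt, close to the limit of the rule. The MeRIP-Seq values have no replicate error, since there is 1 list, and the depth behind the pileups is unknown.

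As a class, distal peaks had values close to those of peaks at other positions. Fold enrichments of distal peaks ran from 1.46 to 16.2 with a median of 3.93, against 3.60 for the 2556 peaks within 200 nt of the stop codon and 3.84 for the 4178 peaks farther upstream in the CDS. The median pileup was 65 fragments, against 73 near the stop codon and 64 in the CDS. Their median −log10 q-value was 15.2, against 14.9 and 14.7. The intervals had a median length of 292 bp, against 310 and 331 bp. These are descriptions of 1 list, and no test was made between classes.

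Most distal peaks lay close to the stop codon. The median summit was 545 nt past it, with quartiles of 330 and 1080.5 nt, in 3'UTRs of a median of 2024 nt. Of the summits, 331 (27.4%) were over 1000 nt and 28 (2.32%) over 3000 nt past the stop codon. In the annotated 3'UTR sequence of genes with a wild type level of at least 1 TPM (the length-scaled share of a library's transcripts, times 1000000), there were 47.2 peaks per 100 kb in the first 200 nt. Past this limit, the density was 21.2 up to 400 nt, 11.6 from there to 800 nt, 6.62 to 1600 nt, 3.81 to 3200 nt and 1.52 beyond. It fell with each step, and there was no gap in the distances at the limit of 200 nt. There were 180 peaks in the 50 nt before the limit and 138 in the 50 nt after it. Eif4ebp1, Mfsd7a and Id2 lay just inside, 1 nt past the limit, and Soga1, Slc37a1 and Tradd just outside, at 200 nt.

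**Figure D1:**
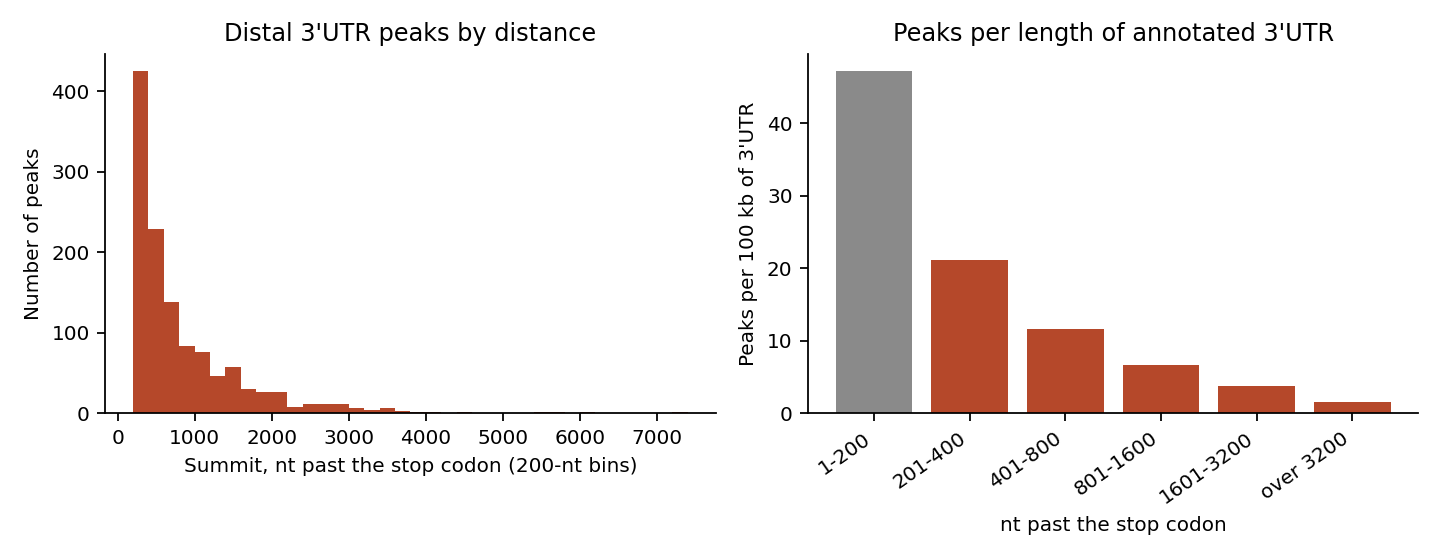
The left panel plots the number of distal 3'UTR peaks (1207) by the distance of the summit past the stop codon in 200-nt bins, and the right panel the peaks per 100 kb of annotated 3'UTR of genes with at least 1 TPM, with the stretch before the limit of 200 nt in grey. Most peaks stand in the left part, with a median of 545 nt, and the density falls from 21.2 to 1.52 per 100 kb over the distal bins.

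The far end of the 3'UTR held few summits. The median summit was 1134 nt from the annotated 3' end, and 4 summits (0.331%, Wilson 95% interval 0.129 to 0.849%) lay within 100 nt of it. An even placement over the stretch past 200 nt would have put 8.21% there. Within 200 nt of the end there were 29 summits (2.40%), against 16.1% for an even placement. In 929 peaks (77.0%) the summit was in the nearer of the equal parts into which the stretch past 200 nt can be split. The 3' ends are those of the annotation, and the ends used in these cells were not measured. Nearly all summits, 1205 of 1207, were in the last exon. The interval of 125 peaks (10.4%) reached back to the stop codon, 42 summits (3.48%) lay in the CDS of another transcript, and 32 (2.65%) lay on exons of more than 1 gene.

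The summit farthest from a stop codon was that of Xpo7, a nuclear export receptor, at 7205 nt of a 3'UTR of 11755 nt. It rested on a pileup of 6 fragments with a −log10 q-value of 2.95, near the bottom of the distal range of 2.00 to 62.9. Fam210a, a mitochondrial protein, had peaks at 348 and 6066 nt, with fold enrichments of 6.75 and 6.20. Tead1, the DNA-binding partner of YAP, had a summit at 5799 nt with a pileup of 53 and a fold enrichment of 2.90. The peak of Cdk5rap2, a centrosomal protein, at 5534 nt held a pileup of 8. Ddr2, a collagen receptor kinase of mesenchymal cells, had peaks at 2942 and 4459 nt with pileups of 81 and 71. The 5 farthest summits thus included both well covered and thinly covered peaks.

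Genes with distal peaks had longer annotated 3'UTRs than all expressed genes, a difference that the rule fixes in part, since a 3'UTR of up to 200 nt, as in 1827 of the expressed genes, cannot hold a distal peak and a longer one leaves more room for it. Among 11962 genes with at least 1 TPM in the wild type, 988 carried a distal peak (8.26%, Wilson 95% interval 7.78 to 8.77%). Their median 3'UTR was 1887.5 nt against 872.5 nt over all these genes, and their median level 19.7 against 17.7 TPM. By 3'UTR length, the share with a distal peak was 0.589% in 3'UTRs over 200 and up to 500 nt, 7.11% up to 1000 nt, 12.1% up to 2000 nt, 16.8% up to 4000 nt and 20.5% beyond. The share with a peak within 200 nt of the stop codon rose over the same classes from 15.2% to 33.8%, although the window there has the same width in every gene. By level, the share with a distal peak was 5.46% at 1 to 5 TPM, 9.24% at 5 to 20 TPM, 9.88% at 20 to 100 TPM and 5.33% at 100 TPM and above.

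**Figure D2:**
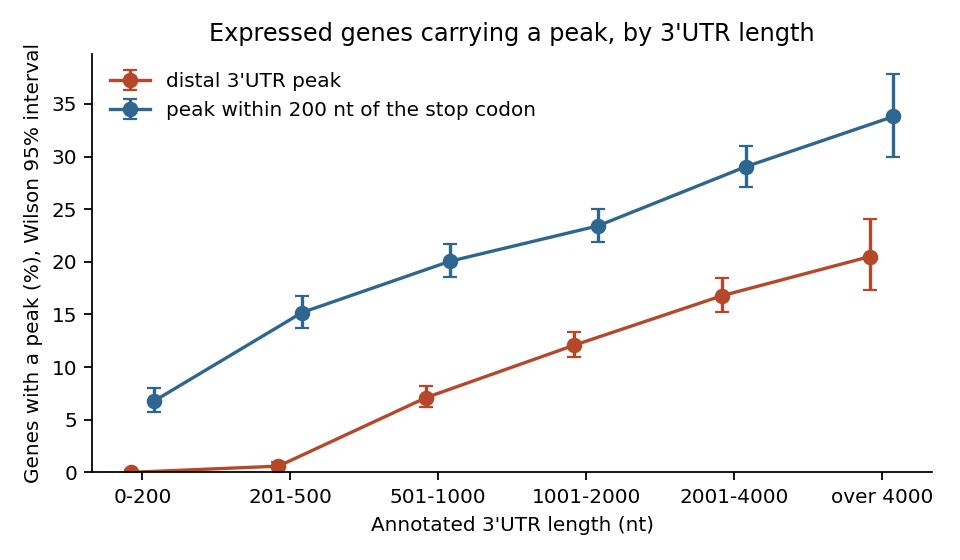
The share of expressed genes (in %, with Wilson 95% intervals) that carry a distal 3'UTR peak or a peak within 200 nt of the stop codon, by annotated 3'UTR length in nt. Both shares rise with 3'UTR length, the distal one from 0.589% over 200 and up to 500 nt to 20.5% over 4000 nt.

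On the same transcripts, distal peaks often stood alone. Of the 1057 genes, 551 (52.1%) had no other peak on the transcript than distal ones, 274 (25.9%) also had a peak within 200 nt of the stop codon, 276 (26.1%) had a CDS peak farther upstream, and 68 (6.43%) had a 5'UTR peak. In the 274 genes with both, the strongest distal peak had the higher fold enrichment in 171 (62.4%) and the higher pileup in 100 (36.5%). The medians were 3.85 against 3.29 for fold enrichment and 70 against 82.5 for pileup, and the distal peak had the higher −log10 q-value in 137 genes. The order of the pair therefore depended on the measure. Fzd1, a Wnt receptor, is an example, with a fold enrichment of 8.77 at 1333 nt and of 3.996 at 100 nt past the stop codon, and pileups of 85 and 113.

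Several genes carried a row of distal peaks. In all, 932 genes had 1 distal peak, 104 had 2, 18 had 3, 2 had 4 and 1 had 5. Neighbouring distal summits of a gene were a median of 671 nt apart (148 to 5718 nt, 150 gaps). Igfbp5, which binds insulin-like growth factors in bone matrix, had the 5 peaks, at 240, 1720, 2132, 2834 and 3204 nt, with fold enrichments of 3.15, 1.91, 3.77, 3.18 and 2.50. Its strongest peak was thus the one near the middle of its 3'UTR of 4445 nt. Rassf4, a Ras-association domain protein, had peaks at 1111, 1782, 2178 and 2815 nt with fold enrichments of 3.72, 4.10, 4.25 and 2.07. Preb, an exchange factor for the GTPase of vesicles that leave the endoplasmic reticulum, had peaks at 1529, 2615, 3264 and 3720 nt, with fold enrichments of 2.90, 5.03, 5.54 and 5.77. Its peak at 132 nt had a fold enrichment of 3.65, below 3 of the 4 distal ones, and a pileup of 75, above their 29, 40, 32 and 31. Ski, a repressor of TGF-β signalling, had 3 peaks with fold enrichments of 3.37, 3.00 and 3.76 at 437, 1080 and 1452 nt. The 3 peaks of Notch2, a Notch receptor, lay 314 and 1127 nt past the stop codon and, the last, 922 nt before the annotated 3' end, and had fold enrichments of 2.87, 4.49 and 4.92.

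**Figure D3:**
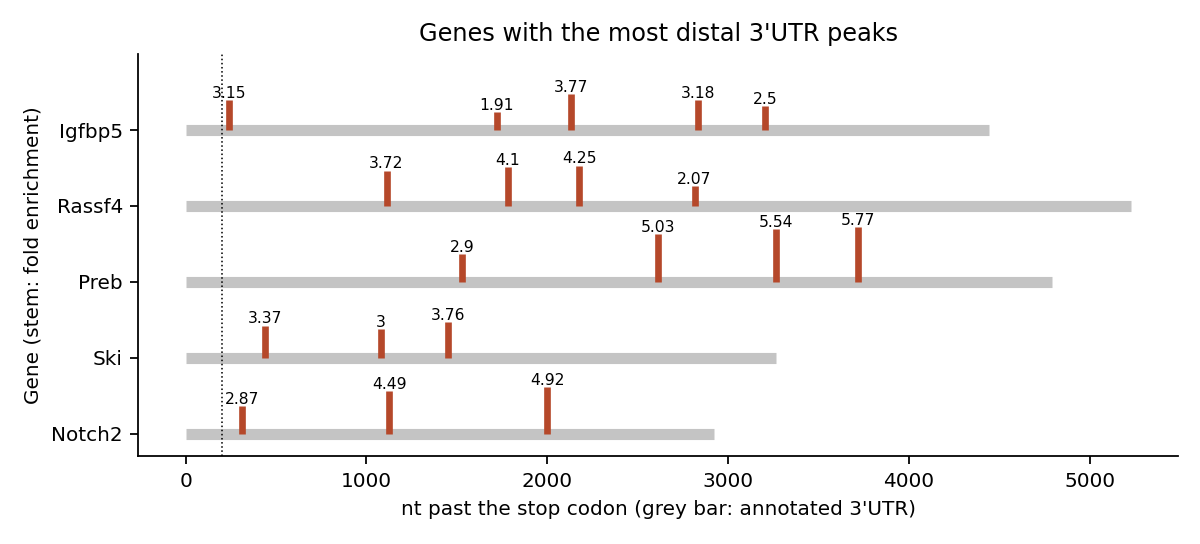
The 5 genes with the most distal 3'UTR peaks, each drawn to scale along its annotated 3'UTR (grey bar, in nt past the stop codon), with a stem at each distal summit whose height and number give the fold enrichment, and a dotted line at 200 nt. Peaks of 1 gene differ in height, as in Igfbp5, from 1.91 to 3.77.

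The sequence around distal summits held the motif that the writer complex prefers. In the mature transcript from 50 nt before to 50 nt after the summit, 731 of 1207 windows (60.6%, Wilson 95% interval 57.8 to 63.3%) held a GGAC on the transcript strand. The share was 64.1% near the stop codon (62.2 to 65.9%) and 61.6% in the CDS (60.1 to 63.1%). In windows of the same length laid end to end over distal 3'UTR sequence without a peak, it was 24.5% in the same genes (14792 windows) and 22.7% in all expressed genes (120364 windows). Windows overlap in genes with close peaks and are not independent, so no test was made. With the following base included, GGACT was in 27.0% of distal peak windows and GGACA in 28.5%, against 8.38% and 9.88% of the windows without a peak in the same genes. The 3 motifs overlap, since each GGACT and GGACA holds a GGAC.

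The motif stood nearest to the summit and on its 3' side. Of 1205 full windows, 13.1% had the A of a GGAC 0 to 9 nt downstream of the summit and 12.9% at 10 to 19 nt, while 8.71% had it 1 to 10 nt upstream. In the windows without a peak in the same genes, each inner bin of 10 nt held between 2.75% and 3.09%. The nearest GGAC of the 3'UTR was a median of 34 nt from the summit and within 25 nt of it in 508 peaks (42.1%). In 7 peaks (0.580%) the 3'UTR held no GGAC at all. The share with the motif had no steady trend with distance from the stop codon. It lay between 53.4% and 64.3% in the distal bins of distance, with wide intervals in the last 2. It was 67.7% in the upper part of the distal peaks split at their median q-value (63.8 to 71.3%) and 53.5% in the lower part (49.5 to 57.4%).

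**Figure D4:**
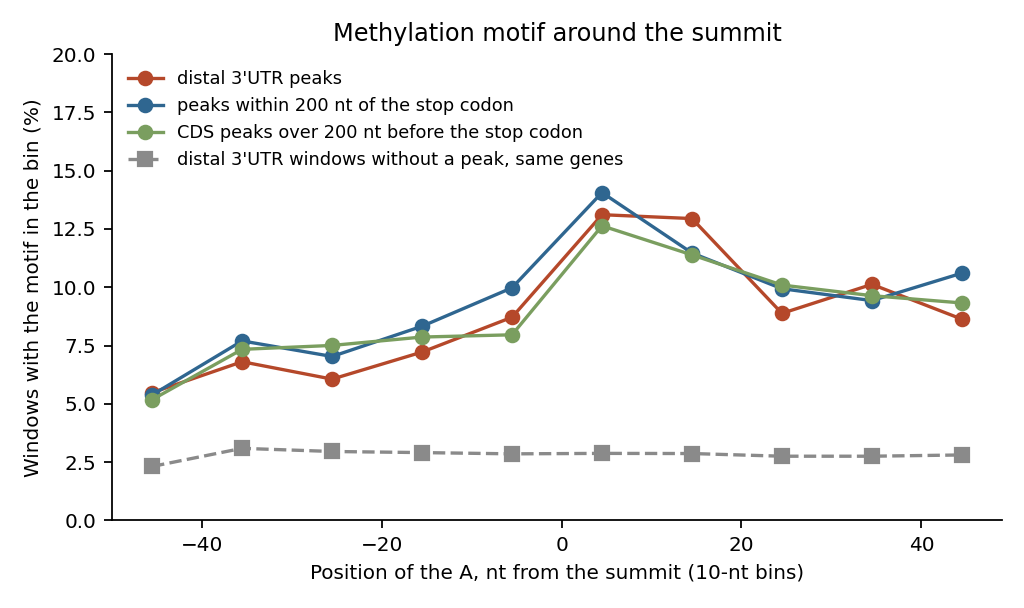
The share of full windows of 50 nt on either side of the summit (in %) with the A of the motif in each 10-nt bin around the summit, in nt, for distal 3'UTR peaks, peaks within 200 nt of the stop codon, CDS peaks and windows of distal 3'UTR without a peak in the same genes. The leftmost bin is incomplete, since a motif there can begin before the window. Distal peaks reach 13.1% just downstream of the summit, and the windows without a peak stay near 3%.

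The base after the GGAC was A in 38.0% of the 1071 motifs in distal windows, T in 34.9%, C in 21.01% and G in 6.07%. In the 4165 motifs of windows without a peak in the same genes the shares were 37.3%, 31.2%, 25.4% and 6.22%. Distal peak windows were richer in G and C, with a median GC content of 52.5% against 46.5% in the windows without a peak. ATTTA, the core of AU-rich decay elements, was in 3.23% of distal peak windows against 12.5% of the windows without a peak, and the polyadenylation signal AATAAA in 1.74% against 5.46%. The parts that GC content and the distance to the 3' end have in these differences were not tested.

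RNA levels in the 2 genotypes were compared for the genes that carry the peaks. The 4 libraries held 23978099 to 34106693 counts. The targeted gene, Mettl3, does not separate the genotypes by its total count, at 17.6 and 16.9 CPM, the counts divided by the library's scaled total and multiplied by 1000000, in the wild type and 17.5 and 16.3 CPM in Prx1-Cre;Mettl3fl/fl. Only exons 2 and 3 are flanked by loxP sites, so that the gene's total count also holds reads from outside them and does not check the labels. The labels are used as given. Macrophage markers (8 of 8 detected) summed to 16490 and 22011 TPM in the wild type and 23875 and 24058 in Prx1-Cre;Mettl3fl/fl. Most of each sum was Lyz2, at 14417.8 and 20116.8 TPM in the wild type and 21565.5 and 21709.3 TPM in Prx1-Cre;Mettl3fl/fl. In the edgeR test described below, 1 of the 8 was higher in Prx1-Cre;Mettl3fl/fl and 0 were lower (adjusted p under 0.05). The 11 stromal markers, of which Lepr was under 1 TPM, summed to 1297 and 1234 TPM in the wild type. In Prx1-Cre;Mettl3fl/fl they summed to 1135 and 1126 TPM. Chondrocyte markers (5 listed, Matn3 under 1 TPM) summed to 1244 and 1245 TPM in the wild type and to 32.8 and 31.5 TPM in Prx1-Cre;Mettl3fl/fl. Their part in the differences between genotypes was not tested. In such bulk samples, fewer cells of a type and less RNA per cell cannot be told apart.

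Genes with a distal peak were more often higher than lower in Prx1-Cre;Mettl3fl/fl. Of these 1057 genes, 1025 were tested and 32 were not, being absent from the table or too low. At an adjusted p under 0.05, 278 (27.1%) were higher and 135 (13.2%) lower in Prx1-Cre;Mettl3fl/fl (edgeR's quasi-likelihood test, Benjamini-Hochberg adjustment over 15327 genes). Over all 15327 genes tested, 30.5% were called, 13.7% higher and 16.8% lower. The median log2 fold change was 0.10 for genes with a distal peak and −0.0038 for all genes tested. Most changes were small, with 25 of the called genes over 2-fold higher and 44 over 2-fold lower. Over all 15327 genes tested these counts were 428 and 982, and neither share, taken over all levels, was larger in genes with a distal peak. Under 5 TPM in the wild type, 18 of 168 genes with a distal peak were over 2-fold higher, against 344 of 5325 tested. Those over 2-fold lower were 14 and 548. The part of level in these shares was not tested. Calls that were higher made up 67.3% of the calls among genes with a distal peak and 44.9% among all genes. On the TPM scale with limma they made up 78.0% and 57.2%, where the median of all genes is itself shifted up by 0.10.

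These counts changed with the libraries used. The counts of the Prx1-Cre;Mettl3fl/fl pair differed by 1.82 times sampling noise, as a chi-square value over its expectation, against 32.6 times for the wild type pair. With 1 Prx1-Cre;Mettl3fl/fl library left out, smaller shares were called in each direction, both of genes with a distal peak and of all genes tested. The median log2 fold change of genes with a distal peak was 0.10 without the first and 0.10 without the second. Over all genes it was −0.0061 and −0.010. With both summed to 1 sample, smaller shares were likewise called in each direction in both sets. The median log2 fold change was then 0.11 for genes with a distal peak and −0.0046 for all genes. With 1 wild type library left out, larger shares were called in each direction in both sets. The median of genes with a distal peak was 0.13 without the first and 0.082 without the second. Over all genes it was −0.0019 and 0.0010. In each of these fits the share higher was above the share higher of all genes, and the median log2 fold change lay between 0.08 and 0.13. The share lower was below that of all genes in each fit except that without the second Prx1-Cre;Mettl3fl/fl library. With 2 libraries a group, an exact permutation test of a single value cannot go below a p of 0.333.

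The shares higher and lower varied with the number of distal peaks and with their distance from the stop codon. Of the 123 tested genes with at least 2 distal peaks, 53 (43.1%) were higher and 9 (7.32%) lower, with a median log2 fold change of 0.22. Of 278 genes with a summit over 1000 nt past the stop codon, 99 were higher and 24 lower. Where distal peaks were the transcript's only peaks, 108 of 531 genes (20.3%) were higher and 73 (13.7%) lower. Genes with a peak within 200 nt of the stop codon and no distal one had 21.6% higher and 13.9% lower of 2211. Those with a CDS peak and neither of these had 22.9% and 12.3% of 1911, with a median log2 fold change of 0.12. Both were close to the genes with distal peaks alone. Coding genes without a peak had 9.57% higher and 21.8% lower of 8092. Classes overlap in part and no test was made between them.

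The direction also moved with the length of the 3'UTR. In 3'UTRs over 200 and up to 1000 nt, 16.2% of genes with a distal peak were higher and 20.2% lower, with a median log2 fold change of −0.01. Above this and up to 2000 nt, 26.1% were higher and 13.5% lower, up to 4000 nt 31.9% and 10.4%, and beyond 4000 nt 33.6% and 9.02%. In genes without a peak, the share higher also rose over these classes, from 7.94% to 21.5%. Genes with a peak near the stop codon and no distal one had 16.2% higher and 13.9% lower over 200 and up to 1000 nt. Up to 2000 nt they had 20.7% and 15.7%. From 2000 up to 4000 nt 29.2% of them were higher, and beyond 33.8%, close to the genes with a distal peak in these 2 classes. The parts of 3'UTR length and of the peaks were not told apart by these counts.

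**Figure D5:**
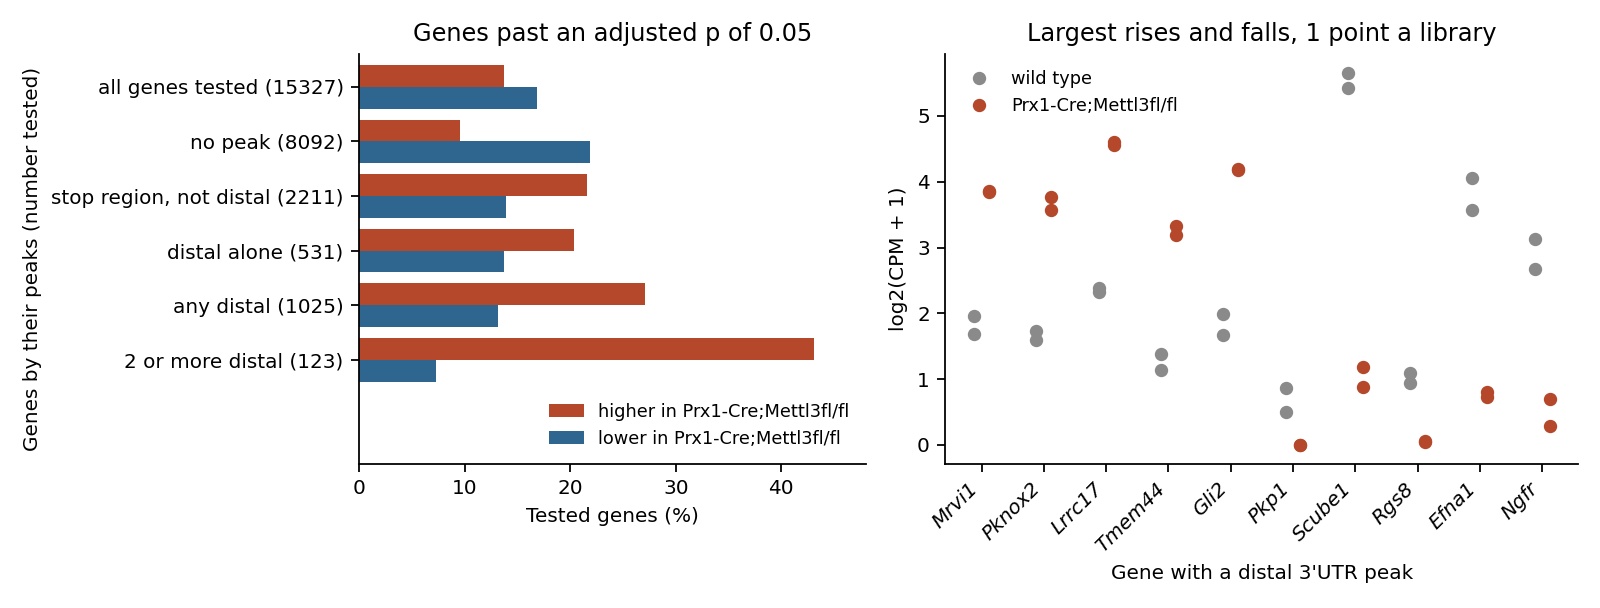
The left panel gives the percent of tested genes past an adjusted p of 0.05 in each direction, by the peaks that the genes carry. The right panel gives log2(CPM + 1) in each of the 4 libraries for genes with a distal peak, 5 with the largest rises and 5 with the largest falls. The share higher is 13.7% over all genes and 43.1% in genes with at least 2 distal peaks, and by the choice of the 10 genes their groups do not overlap.

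The largest rises were in genes that were low in the wild type. Gli2, a transcription factor that carries hedgehog signals, stood at 2.99 and 2.19 CPM in the wild type and at 17.2 and 17.3 CPM in Prx1-Cre;Mettl3fl/fl. Its log2 fold change was 2.72 (SE 0.16, adjusted p = 0.00011). Tmem44, a transmembrane protein, rose from 1.60 and 1.20 CPM to 8.09 and 9.005 CPM (log2 fold change 2.60, SE 0.20). Both genes were several-fold higher in each Prx1-Cre;Mettl3fl/fl library than in either wild type library. Lrrc17, a secreted leucine-rich repeat protein that restrains osteoclast formation, rose from 4.02 and 4.21 CPM to 22.5 and 23.2 CPM (log2 fold change 2.48, SE 0.11). Pknox2, a homeodomain factor, rose from 2.31 and 2.02 CPM to 12.7 and 10.9 CPM. Mrvi1, a substrate of cGMP-dependent kinase, rose from 2.22 and 2.90 CPM to 13.4 and 13.5 CPM. The peaks of these 5 genes were thin, with pileups of 7 in Gli2, 12 in Tmem44, 14 in Lrrc17, 8 in Pknox2 and 13 in Mrvi1.

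The 5 largest falls included genes of several kinds, both membrane or secreted and intracellular. Scube1, a secreted protein with EGF and CUB domains, fell from 41.8 and 49.4 CPM to 1.28 and 0.847 CPM, a log2 fold change of −5.45 (SE 0.19, adjusted p = 1.4e-05). Efna1, an ephrin ligand, fell from 10.8 and 15.6 CPM to 0.743 and 0.659 CPM (log2 fold change −4.23, SE 0.27). Ngfr, the low-affinity neurotrophin receptor and a surface marker of stromal cells, fell from 5.35 and 7.78 CPM to 0.619 and 0.220 CPM (log2 fold change −4.03, SE 0.42). The groups were far apart in all 3. Pkp1, a desmosomal plaque protein, had 14 and 23 counts in the wild type and 0 in both Prx1-Cre;Mettl3fl/fl libraries, so that it was at least 5.63-fold lower when set against 3 counts per library. Rgs8, a regulator of G-protein signalling, had 38 and 26 counts against 1 and 1, a ratio of 28.9 (exact 95% interval 7.69 to 244, counting error only). Thin distal peaks occurred here too, with pileups of 7 in Scube1, 9 and 7 in Pkp1 and 12 in Rgs8. In Efna1 and Ngfr the pileups were 31 and 52.

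Among the 9 genes whose sites are printed above, 2 rose, 1 fell and 6 did not pass the test. Of all genes tested, 30.5% passed it. Akap2 stood at 138 and 131 CPM in the wild type and at 174 and 184 CPM in Prx1-Cre;Mettl3fl/fl (log2 fold change 0.42, SE 0.06, adjusted p = 0.0047). Pid1 rose from 189 and 171 CPM to 227 and 222 CPM (log2 fold change 0.31, SE 0.07, adjusted p = 0.017). H6pd fell from 229.9 and 250.1 CPM to 195 and 192 CPM (log2 fold change −0.31, SE 0.07, adjusted p = 0.015). These groups did not overlap, while all 3 differences were small. Camk2g, with the strongest peak, was at 41.3 and 42.0 CPM in the wild type and 40.8 and 41.6 CPM in Prx1-Cre;Mettl3fl/fl, with overlapping groups. Klf13 was at 238 and 234 CPM against 236 and 239 CPM. The log2 fold changes of the 6 genes that did not pass lay between −0.11 in Nol9 and 0.11 in Pdgfa. Without the first Prx1-Cre;Mettl3fl/fl library Pid1 and H6pd missed the threshold (adjusted p = 0.20 and 0.19), and without the second Pid1, H6pd and Akap2 did (adjusted p = 0.16, 0.22 and 0.095).

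Among the genes with the farthest or the most peaks, those that passed the test all rose. Of all genes tested, 13.7% were higher and 16.8% lower, and of those with a distal peak 27.1% and 13.2%. Ddr2 stood at 219 and 185 CPM in the wild type and at 300.2 and 304 CPM in Prx1-Cre;Mettl3fl/fl (log2 fold change 0.58, SE 0.09, adjusted p = 0.0049). Tead1 rose from 83.9 and 86.3 CPM to 113 and 115 CPM (log2 fold change 0.42, SE 0.06, adjusted p = 0.0032). Rassf4 rose from 143 and 150.0 CPM to 207 and 201.4 CPM (log2 fold change 0.48, SE 0.06, adjusted p = 0.0023). All 3 were higher in each Prx1-Cre;Mettl3fl/fl library than in either wild type library. Notch2 rose from 165 and 129 CPM to 210.2 and 210.1 CPM, and Ski from 164 and 150.6 CPM to 207 and 213 CPM. Igfbp5, with the most peaks, was at 24.6 and 30.1 CPM against 31.7 and 30.1 CPM, with overlapping groups (adjusted p = 0.28). Preb was at 89.6 and 99.7 CPM against 83.6 and 85.0 CPM (log2 fold change −0.17, adjusted p = 0.13). Xpo7, Cdk5rap2 and Fam210a, with far summits, did not pass either. Their log2 fold changes were −0.11, −0.23 and 0.20 (adjusted p = 0.23, 0.10 and 0.065). Without either Prx1-Cre;Mettl3fl/fl library, Tead1, Ski and Notch2 missed the threshold, with adjusted p between 0.052 and 0.087.

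Distal peaks were next set against 12 lists of genes of bone and marrow biology. The share of all expressed genes with a distal peak, 8.26%, is the value to read these against. Of the 19 expressed genes of the m6A machinery, none had a distal peak. A peak within 200 nt of the stop codon, which 20.1% of all expressed genes had, was on 4 of the 21 listed genes. Matrix and adhesion genes had distal peaks in 8 of 38, BMP and TGF-β genes in 9 of 43, Notch genes in 4 of 20, immediate early genes and binders of AU-rich elements in 6 of 32, and Hippo genes in 4 of 25. In adipocyte genes they were in 2 of 25 (8.0%), close to the 8.26% of all expressed genes, and in Wnt genes in 1 of 40, where the gene was Fzd1. Osteoblast genes had 3 of 24, genes from the PTH receptor to protein kinase A 5 of 35, and the IGF and FGF list 4 of 34. Zinc finger genes with a Zfp symbol had 21 of 277. No list was tested for enrichment.

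In the BMP and TGF-β list, 4 of the 10 genes with a distal peak were higher and 5 lower. Calls in this and the following lists are to be read against all genes tested, with 13.7% higher and 16.8% lower. Among all genes with a distal peak the shares were 27.1% and 13.2%. Members named from here on other than those with the 2 strongest peaks of a list were picked once their values were known. Over the whole list, 12 of 47 tested genes were higher and 19 lower, with a median log2 fold change of −0.14, so that the list leaned to lower calls also beyond the genes with a distal peak. Id1, an inhibitor of basic helix-loop-helix factors and a direct BMP target, fell from 65.8 and 73.2 CPM to 23.2 and 24.1 CPM (log2 fold change −1.55, SE 0.08), and its peak lay at 250 nt. Id2 fell from 237 and 207 CPM to 98.2 and 100.4 CPM (log2 fold change −1.16). Grem1, a secreted BMP antagonist, fell from 268 and 383 CPM to 135 and 141 CPM (log2 fold change −1.24). The other genes that fell were the co-receptor Eng, with a log2 fold change of −0.71, and the ligand Tgfb2, with −0.47 and a peak of fold enrichment 7.74 at 610 nt. Those that rose were Smurf1, which targets Smads for degradation, with a log2 fold change of 0.56, Ski with 0.42, Smad3 with 0.28 and the secreted glycoprotein Fstl1 with 0.42. Without either Prx1-Cre;Mettl3fl/fl library Ski, Fstl1 and Smad3 missed the threshold (adjusted p up to 0.087, 0.088 and 0.31), and without the first so did Tgfb2 (adjusted p = 0.078).

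In the matrix and adhesion list, 4 of 8 genes with a distal peak were lower and 1 was higher, against 18 lower and 14 higher of 42 tested in the whole list, with a median log2 fold change of −0.087. Col12a1, a fibril-associated collagen, fell from 2616 and 2314 CPM to 870.1 and 863 CPM (log2 fold change −1.51, SE 0.07). Col1a1, the main collagen chain of bone, fell from 1896 and 1921 CPM to 1225 and 1259 CPM (log2 fold change −0.62), and its distal peak at 645 nt was weak, with a fold enrichment of 1.82. The integrin chains Itga3 and Itga5 fell by 1.20 and 0.32 on the log2 scale. Sdc1, a heparan sulfate proteoglycan, rose from 203 and 199 CPM to 266 and 265 CPM (log2 fold change 0.40). Without either Prx1-Cre;Mettl3fl/fl library Itga5 and Sdc1 missed the threshold (adjusted p up to 0.21 and 0.082). The chondrocyte markers, given above, moved in the same direction as the falls of the matrix genes, and their part was not tested.

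Among immediate early genes with a distal peak, Dusp5, Maff and Ier2 were lower and Klf9 and Mafk higher. The whole list, with the binders of AU-rich elements, had 18 lower and 6 higher of 33 tested and a median log2 fold change of −0.56. Maff, a small Maf factor, fell from 33.1 and 37.1 CPM to 15.8 and 14.5 CPM (log2 fold change −1.21, SE 0.10). Dusp5, a nuclear phosphatase of ERK, fell by 1.26 on the log2 scale, and Ier2 by 0.30 with a peak of pileup 137 at 412 nt. Atf3 had a peak with a pileup of 182 at 728 nt and stood at 127 and 92.4 CPM against 84.2 and 85.3 CPM (adjusted p = 0.093). Klf4, a factor of the adipocyte list that also belongs to the early response genes, fell from 178 and 191 CPM to 44.6 and 44.5 CPM (log2 fold change −2.05, SE 0.07, adjusted p = 1.2e-05). Its distal peak was weak, at 309 nt with a pileup of 29. Rxra, with 3 distal peaks, was at 220.3 and 209 CPM against 217 and 211 CPM (adjusted p = 0.95). The calls of Ier2, Klf9 and Mafk were lost without either Prx1-Cre;Mettl3fl/fl library (adjusted p up to 0.32, 0.15 and 0.29).

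In the signalling lists, most members with a distal peak that passed the test rose by less than 2-fold, while Igfbp3 and Fzd1 fell. The whole Notch list had 10 higher and 2 lower of 23 tested. The IGF and FGF list had 10 higher and 13 lower of 35, and the Wnt list 16 and 8 of 50. Amotl2, a YAP-binding scaffold, rose from 125 and 111 CPM to 170 and 167 CPM (log2 fold change 0.51, SE 0.07), and its peak at 953 nt had a fold enrichment of 6.81 against 2.72 for the peak at 170 nt. Vgll3, a cofactor of TEAD factors, rose by a log2 fold change of 0.54, while Yap1 missed the threshold at 0.25 (adjusted p = 0.073). The whole Hippo list had 10 higher and 4 lower of 26 tested. Of the 5 genes of the PTH receptor to protein kinase A list, Akap2, Arrb1, Crtc3 and Adcy7 rose, the last with a log2 fold change of 0.19 (adjusted p = 0.049). In the whole list 13 of 35 tested genes were higher and 7 lower, against 13.7% and 16.8% of all genes tested. Notch1 had a peak of fold enrichment 6.47 at 832 nt and stood at 37.4 and 27.9 CPM against 41.1 and 40.4 CPM (adjusted p = 0.13). Pik3r1, the regulatory subunit of PI3-kinase, rose from 260.4 and 223 CPM to 324 and 330.4 CPM (log2 fold change 0.44), and Igfbp3 fell from 58.4 and 76.2 CPM to 18.7 and 19.7 CPM (log2 fold change −1.81). The calls of Akap2 without the second Prx1-Cre;Mettl3fl/fl library (adjusted p = 0.095), and of Arrb1, Crtc3, Adcy7 and Pik3r1 without either, were lost (adjusted p up to 0.16, 0.20, 0.42 and 0.093). Fzd1 fell from 174 and 167 CPM to 101.1 and 104 CPM (log2 fold change −0.73, SE 0.06).

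Of the 22 zinc finger (Zfp) genes with a distal peak, 12 were higher and 1, Zfp146, was lower in Prx1-Cre;Mettl3fl/fl. Over the whole Zfp list, 83 of 344 tested genes were higher and 13 lower, with a median log2 fold change of 0.28. The shares were 13.7% and 16.8% over all genes tested, and 27.1% and 13.2% over all genes with a distal peak. Zfp275 had a distal peak with a fold enrichment of 10.1 at 1587 nt, although the nearest GGAC was 424 nt upstream. It rose from 25.8 and 22.6 CPM to 35.9 and 32.4 CPM (log2 fold change 0.49, SE 0.10). Zfp282, with peaks at 243 and 1114 nt, rose from 21.5 and 19.3 CPM to 24.9 and 26.9 CPM (log2 fold change 0.35). The calls of Zfp282 and Zfp146 were lost without either Prx1-Cre;Mettl3fl/fl library (adjusted p up to 0.32 and 0.11), and that of Zfp275 without the first (adjusted p = 0.13). Zfp genes share sequence, so that reads of close copies could be split between them in the authors' counting.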

How the data were processed

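For MeRIP-Seq, polyadenylated RNA was fragmented and immunoprecipitated by the authors. The deposited list (1 list for 2 immunoprecipitates and 2 inputs) gives, in the layout of MACS2 output, for each peak a pileup signal, a ratio named fold enrichment against local background, and −log10 q-values. Whether samples were pooled is not given in the sources used here, so replicates cannot be compared. The submitters' processing notes name TopHat, MACS2, HISAT2 2.0.4, mm9 and mm10. The chromosome positions of the peaks are those of mm9. For RNA-seq, the authors deposited estimated counts per gene, with no normalization, and values headed FPKM that sum to 1000000 in each library and are therefore used as TPM. Strand was not given for the counting, so genes that overlap on opposite strands cannot be told apart.

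Summits were placed on GENCODE vM1 transcripts of mm9. Where a summit lay on exons of more than 1 gene, the gene with the most counts was used. GGAC was counted on the transcript strand. Estimated counts were rounded, 89 entries without a name (0.110% to 0.125% of counts) were left out, and 15327 genes that passed filterByExpr entered the two-sided quasi-likelihood test of edgeR 4.0.16 after TMM scaling, with Benjamini-Hochberg adjustment. CPM values use TMM-scaled library sizes. The peaks, gene lists and comparisons were chosen with earlier results of these data known. Named genes are those with the 10 highest q-values, the 5 farthest summits, the 5 highest numbers of peaks, the 5 largest rises and falls (at least 10 counts in each library of 1 group, no overlap), and the 2 strongest peaks of each list. Of these, 1 gene is not reported here. Alternatives were a replicate block, no filter, median-of-ratios factors, DESeq2 1.42.0, limma 3.58.1 on log2(TPM + 0.1) and log2(TPM + 1), each library left out, and other rules for the peaks. Placement and the edgeR fit were tested on simulated data. The labels do not say whether libraries came from separate animals, so p-values measure the spread between libraries. Intervals are Wilson 95% intervals unless stated otherwise.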

Additional observations from a re-analysis of the deposited data

How the results depend on the processing

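The number of distal peaks was 1838 when the 3'UTR of any coding transcript was allowed, 782 past 400 nt and 659 above the list's median q-value, and stayed within 1.5 times of 1207 under the other 6 rules. The share with GGAC was 40.6% in windows of 51 nt, 80.5% in windows with 100 nt on either side and 89.1% over the whole peak, since a wider window holds more sequence, and 66.8% above the list's median q-value. It moved by less than its interval past 400 nt and on the longest transcript. Among genes with a distal peak, limma on log2(TPM + 0.1) and on log2(TPM + 1) gave 70 lower calls each, with medians of 0.22 and 0.20, on scales where the median of all genes shifted by 0.10. With the Prx1-Cre;Mettl3fl/fl libraries summed, an alternative chosen after seeing the data, 99 genes were higher and 72 lower. Leaving out a library gave 93 to 488 higher, 66 to 229 lower and medians from 0.082 to 0.13. Genes with a peak above the list's median q-value had 185 higher, 66 lower and a median of 0.14, and those past 400 nt 82 lower, out of fewer genes. The cause of the other changes was not tested.

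The replicate numbers did not pair the samples (correlation of deviations 0.0335), and with a replicate block 296 genes were higher and 137 lower, with a median of 0.10. Under the block Atf3, Yap1 and Notch1 passed the threshold (adjusted p = 0.032, 0.048 and 0.041) and Ier2 and Adcy7 missed it (adjusted p = 0.055 and 0.096). Of the named genes that passed the test, none changed direction. Log2 fold changes that reversed were of genes that did not pass. On the TPM scales they were those of Camk2g (0.082 and 0.078), Dcun1d2 (0.047 and 0.044), Cdk5rap2 (0.21 and 0.18) and Rxra (0.17 and 0.16). With a library left out, values ranged from −0.026 to 0.0039 for Camk2g, −0.054 to 0.29 for Pdgfa, −0.0043 to 0.029 for Klf13, −0.047 to 0.037 for Rxra and −0.078 to 0.023 for Mettl3. Of 49 named genes past the threshold, 27 stayed past it with the Prx1-Cre;Mettl3fl/fl libraries summed, 28 and 29 without the first and second of them, and 43 with DESeq2. No depth is known for the peaks.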
